A study of Homo sapiens with 24 samples.

Results

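The genes described here are 44 genes of protein quality control in the endoplasmic reticulum (ER), the compartment in which secreted and membrane proteins are folded. They were taken by gene symbol from a list that sets no threshold on measured values but was drawn up with earlier results of these data known, and all 44 were found among the 25168 genes of each count table. By role they comprise 11 chaperones and co-chaperones, 3 genes of the lectin chaperone cycle, 9 disulfide and proline isomerases, 10 genes of ER-associated degradation (ERAD), 5 sensors and transcription factors of the unfolded protein response (UPR), 5 genes of translocation and signal peptide cleavage, and WFS1, an ER membrane protein linked to calcium balance. RNA was sequenced from PANC1 and BXPC3, established human pancreatic ductal adenocarcinoma lines, after 24 h with SR4 at 5 uM, lonidamine at 300 uM, both compounds, or vehicle. The compound with the code name SR4 has been described to uncouple mitochondria, and lonidamine is known to block mitochondrial pyruvate import and lactate export. Each line had 4 groups of 3 libraries, which gives 24 libraries in 8 groups, and the title of the series names a pair of treatments aimed at cellular energy supply. All cells were grown in low-glucose medium with serum, and no engineered allele is given for either line. The doses within the combination are not stated separately, so comparisons of the combination with a single compound assume the same doses. It is not stated whether the libraries of a group came from separate cultures, so p-values measure the spread between these libraries, which may be technical.

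As background, HSPA5 (BiP) binds unfolded chains in the ER and keeps the sensors IRE1 (encoded by ERN1), PERK and ATF6 inactive. When unfolded chains build up, IRE1 splices the mRNA of XBP1, ATF6 is cut to release a transcription factor, and PERK slows translation and raises ATF4. XBP1 and ATF6 act through short promoter elements of chaperone and ERAD genes, and ERAD returns chains that fail to fold to the cytosol for degradation. The exocrine pancreas carries a heavy load of secreted protein and is known for its dependence on these genes.

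The elements named ER stress response element (ERSE) and ERSE-II are the best known DNA sites of ATF6 and XBP1, so promoters that hold them are shown for 8 genes whose values are described below. RefSeq windows on GRCh38.p14, from 250 bases before to 50 bases after a transcript start, were matched for 40 of the 44 genes; FKBP14, DERL3, PDIA3 and DERL1 were not matched. Capitals mark ERSE (CCAAT and CCACG with 9 bases of any kind between them), ERSE-II (ATTGG and CCACG with 1 base between them), the core of the UPR element (TGACGTG) and the C/EBP-ATF response element (TTGC followed directly by ATCA), searched on both strands. The line of HSPA5 is chr9:125241294-125241593 on the minus strand, that of HSP90B1 chr12:103930160-103930459 on the plus strand, that of HYOU1 chr11:119057156-119057455 on the minus strand, that of HERPUD1 chr16:56931892-56932191 on the plus strand, that of XBP1 chr22:28800520-28800819 on the minus strand, that of SDF2L1 chr22:21642052-21642351 on the plus strand, that of CRELD2 chr22:49918384-49918683 on the plus strand and that of CALR chr19:12938359-12938658 on the plus strand.
HSPA5: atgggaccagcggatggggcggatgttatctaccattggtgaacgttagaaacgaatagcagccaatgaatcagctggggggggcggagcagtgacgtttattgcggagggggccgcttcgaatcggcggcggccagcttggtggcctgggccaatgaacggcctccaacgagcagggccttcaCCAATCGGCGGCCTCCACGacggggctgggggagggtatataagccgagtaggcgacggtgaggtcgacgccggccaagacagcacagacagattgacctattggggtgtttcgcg
HSP90B1: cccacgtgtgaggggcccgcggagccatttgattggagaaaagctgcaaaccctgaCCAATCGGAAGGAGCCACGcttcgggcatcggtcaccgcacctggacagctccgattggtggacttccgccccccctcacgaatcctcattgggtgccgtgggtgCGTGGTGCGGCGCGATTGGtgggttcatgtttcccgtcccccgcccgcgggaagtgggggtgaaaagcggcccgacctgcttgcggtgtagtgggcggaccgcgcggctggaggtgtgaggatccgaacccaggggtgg
HYOU1: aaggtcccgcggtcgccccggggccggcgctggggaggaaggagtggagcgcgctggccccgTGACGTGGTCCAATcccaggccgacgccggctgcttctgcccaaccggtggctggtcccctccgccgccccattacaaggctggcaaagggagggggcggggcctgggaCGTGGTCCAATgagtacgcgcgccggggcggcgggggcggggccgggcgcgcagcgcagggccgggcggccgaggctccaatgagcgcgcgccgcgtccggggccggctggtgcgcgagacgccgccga
HERPUD1: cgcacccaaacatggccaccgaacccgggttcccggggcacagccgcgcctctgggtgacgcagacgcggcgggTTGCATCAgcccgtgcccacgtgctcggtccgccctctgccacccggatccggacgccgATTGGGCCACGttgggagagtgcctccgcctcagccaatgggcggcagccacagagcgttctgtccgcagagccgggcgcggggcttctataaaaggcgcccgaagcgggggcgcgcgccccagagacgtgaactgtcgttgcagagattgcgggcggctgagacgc
XBP1: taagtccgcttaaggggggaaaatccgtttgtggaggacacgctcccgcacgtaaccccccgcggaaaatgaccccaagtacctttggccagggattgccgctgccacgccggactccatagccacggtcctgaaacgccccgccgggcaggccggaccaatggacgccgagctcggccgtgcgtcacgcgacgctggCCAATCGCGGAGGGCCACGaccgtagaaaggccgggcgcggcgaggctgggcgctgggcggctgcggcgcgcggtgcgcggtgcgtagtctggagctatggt
SDF2L1: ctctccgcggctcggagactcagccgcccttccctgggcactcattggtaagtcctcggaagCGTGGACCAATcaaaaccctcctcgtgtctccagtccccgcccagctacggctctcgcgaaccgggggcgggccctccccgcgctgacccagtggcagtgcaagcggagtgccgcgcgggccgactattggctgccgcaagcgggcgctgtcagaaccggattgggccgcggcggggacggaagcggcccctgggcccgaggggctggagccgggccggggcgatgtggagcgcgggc
CRELD2: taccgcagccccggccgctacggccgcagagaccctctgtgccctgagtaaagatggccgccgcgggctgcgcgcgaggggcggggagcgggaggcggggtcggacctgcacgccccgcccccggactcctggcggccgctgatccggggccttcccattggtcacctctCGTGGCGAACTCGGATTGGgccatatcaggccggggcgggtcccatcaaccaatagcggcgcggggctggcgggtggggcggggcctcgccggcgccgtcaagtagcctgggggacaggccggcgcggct
CALR: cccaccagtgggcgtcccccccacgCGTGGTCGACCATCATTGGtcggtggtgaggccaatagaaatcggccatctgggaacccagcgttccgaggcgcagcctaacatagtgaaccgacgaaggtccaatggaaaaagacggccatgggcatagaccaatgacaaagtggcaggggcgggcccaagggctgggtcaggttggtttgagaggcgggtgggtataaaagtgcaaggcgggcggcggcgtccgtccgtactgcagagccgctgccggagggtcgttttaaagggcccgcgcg
ERSE was in 7 of the 40 matched genes (CALR, CANX, CRELD2, HSP90B1, HSPA5, PDIA6 and XBP1), and in 25 of the 27305 genes with a window, or 0.0916% (0.0769% of all 35116 windows). ERSE-II was in 3 of the 40 (HERPUD1, HYOU1 and SDF2L1) and in 0.0696% of all genes (0.0541% of windows). The UPR element core was in 5 of the 40 (DNAJC10, HYOU1, SEC61A1, TXNDC11 and TXNDC5) and in 2.40% of all genes (1.97% of windows), and in HYOU1 it overlaps an ERSE-II on the other strand. The C/EBP-ATF element was in HERPUD1 and in 1.08% of all genes (0.866% of windows). A match describes letters in a window and is not a measured binding site. Only exact matches were searched, so near matches are not marked or counted.

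Total gene counts were 8873041 to 11822495 per PANC1 library and 9142433 to 11470973 per BXPC3 library. Levels are given as CPM, the usual scale for a gene's count as a share of the TMM-scaled library total, so a lower level can come from fewer cells that express a gene or from less of its RNA per cell, which cannot be told apart. Changes are log2 differences with their standard errors (SE), n = 3 libraries in every group, and a gene is said to have risen or fallen where its adjusted p is under 0.05 by edgeR's quasi-likelihood test, Benjamini-Hochberg adjusted over all genes tested. The lines could be told apart by their markers: SMAD4, known to be deleted in BXPC3, averaged 51.4 ± 1.89 CPM (SD, n = 3) in PANC1 vehicle libraries and had 0 counts in all BXPC3 libraries. VIM was higher and CDH1 and KRT19 were lower in PANC1 vehicle libraries than in those of BXPC3. Of 6 markers of other cells, PTPRC, COL1A2 and PECAM1 were at 1.40 CPM or lower in every library, while CD68 averaged 211 ± 4.45 CPM and COL1A1 16.2 ± 0.744 CPM with the combination in PANC1, against 123 ± 4.09 and 81.9 ± 2.99 with vehicle. In BXPC3, CD68 averaged 38.1 ± 2.10 CPM, COL1A1 22.7 ± 3.97 and CDH5 0.0371 ± 0.0643 with the combination, against 18.2 ± 1.11, 11.9 ± 0.944 and 7.87 ± 0.700 with vehicle. The part of these transcripts in the results was not tested. Transcripts known to stay in the nucleus moved with treatment: MALAT1 averaged 1490 ± 338 CPM with SR4, 1200 ± 155 with lonidamine and 1410 ± 165 with the combination in PANC1, against 671 ± 87.4 with vehicle. In BXPC3 it averaged 696 ± 259 CPM with SR4, 983 ± 386 with lonidamine and 1290 ± 152 with the combination, against 307 ± 34.9 with vehicle. NEAT1 averaged 591 ± 237, 374 ± 163 and 582 ± 125 CPM in PANC1 in the same order, against 126 ± 38 with vehicle. Its BXPC3 averages were 191 ± 32.4, 311 ± 209 and 386 ± 84.6 CPM, against 73.9 ± 17.6 with vehicle. The part of MALAT1 and NEAT1 in the changes below was not tested. Another gene of at least 10 CPM overlaps 12 of the 44 genes, and with the strand setting of the counting not given in the sources used here, the values of these are uncertain. They are HSP90B1, SIL1, DNAJB9, DNAJB11, CRELD2, TXNDC11, SYVN1, DERL1, DERL2, DERL3, SEC61A1 and SRPRB.

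With the combination, most of the 44 genes rose in both lines. In PANC1, 33 rose and 4 fell, or 75.0% and 9.09%, where 40.1% and 40.9% of all 12514 genes tested rose and fell and 81.1% passed in either direction. In BXPC3, 28 rose and 9 fell, or 63.6% and 20.5%, where 39.7% and 39.5% of 12920 genes did and 79.2% passed in either direction. The median change of the 44 was 0.57 log2 in PANC1, against -0.02 over all genes, and 0.34 in BXPC3, against -0.001. At least 2-fold rises numbered 17 in PANC1 and 7 in BXPC3, or 38.6% and 15.9%, where the shares of all genes were 14.0% and 12.7%.

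Single compounds divided the list. With SR4, 19 genes rose and 15 fell in PANC1 (background 35.0% and 36.7%, and 71.7% in either direction), and 25 rose and 11 fell in BXPC3 (background 33.4% and 33.9%, and 67.2% in either direction). The PANC1 shares, 43.2% and 34.1%, were near those of all genes. With lonidamine, 23 rose and 11 fell in PANC1 (background 35.0% and 34.2%, and 69.2% in either direction), and 24 rose and 13 fell in BXPC3 (background 34.8% and 32.7%, and 67.5% in either direction). All 44 passed the filter on low counts in each line. The 3 treatments of a line share their vehicle libraries, so the counts of a line are not independent of each other.

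**Figure D1:**
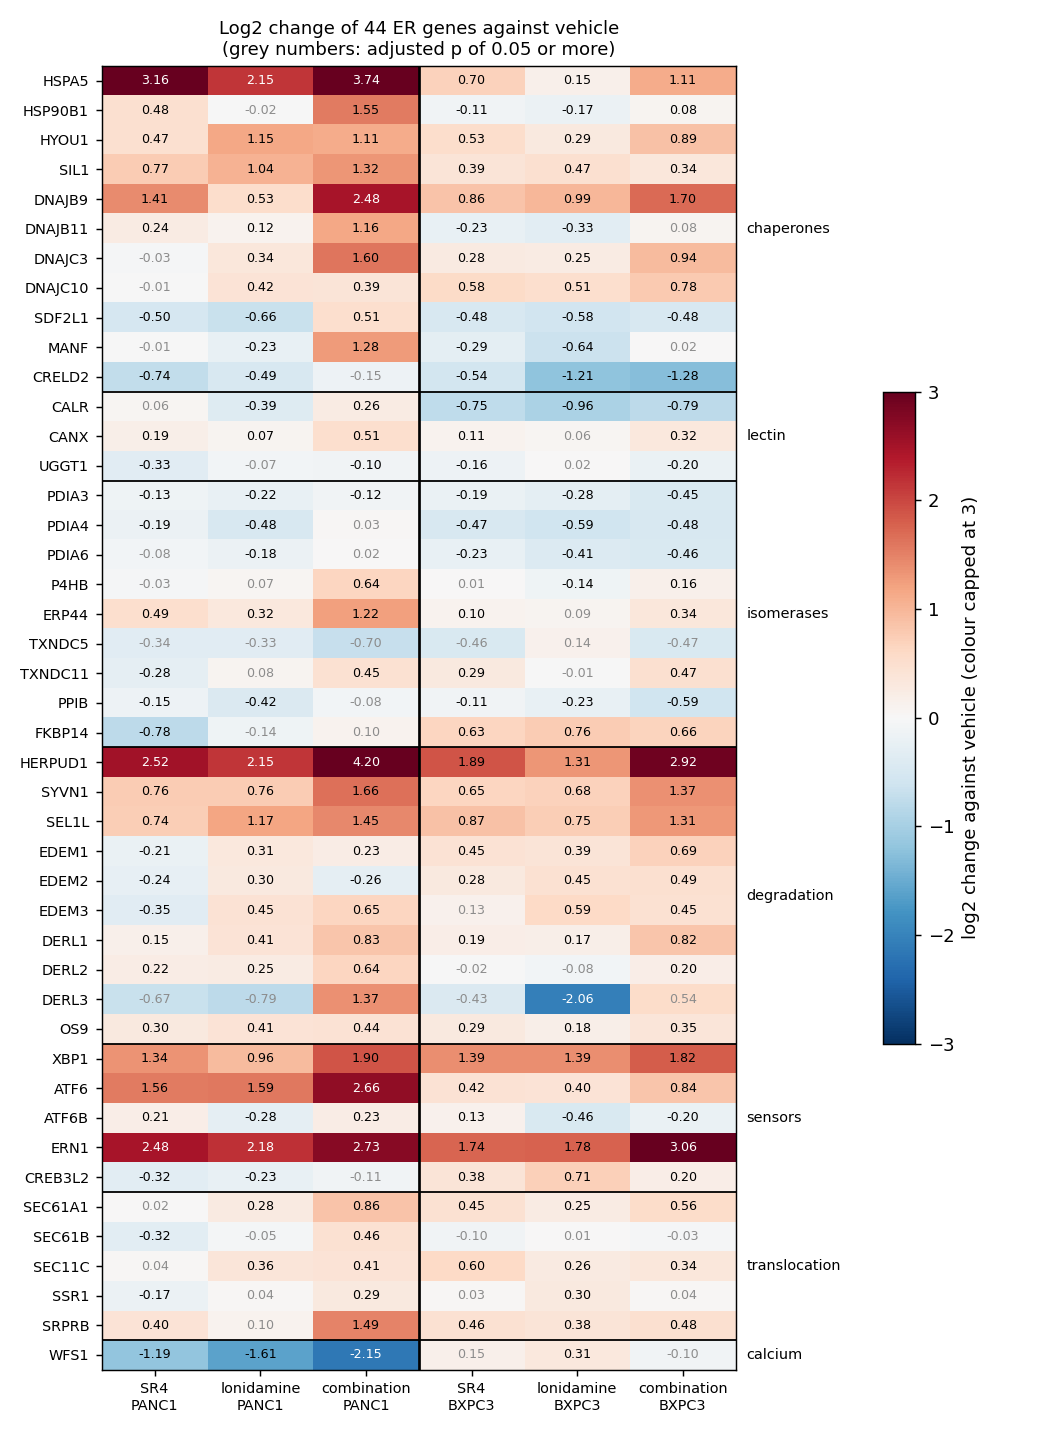
Log2 change from vehicle of each of the 44 genes (rows, ordered by role) for SR4, lonidamine and the combination in PANC1 and BXPC3 (columns), with colour capped at 3 log2 units and grey numbers for values that did not pass the test. HERPUD1, ERN1, XBP1 and ATF6 are raised in all 6 columns, and WFS1 is lowered in PANC1.

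HSPA5, the BiP chaperone, made up most of the change in the summed level in PANC1. Summed over the 44 genes, the PANC1 level averaged 18004 ± 287 CPM with SR4, 14296 ± 271 with lonidamine and 26749 ± 42.0 with the combination, against 10847 ± 160 with vehicle (SD, n = 3 each). These sums were 1.66, 1.32 and 2.47 times the vehicle sum. Without HSPA5 the ratios were 1.11, 1.08 and 1.64. In BXPC3 the sum averaged 12877 ± 222 CPM with SR4, 11589 ± 196 with lonidamine and 14853 ± 216 with the combination, against 11833 ± 157 with vehicle. The BXPC3 ratios were 1.09, 0.979 and 1.26, and 1.03, 0.965 and 1.16 without HSPA5. HSPA5 made up 38.0% of the PANC1 sum with SR4, 23.8% with lonidamine and 38.4% with the combination, against 7.07% with vehicle.

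**Figure D2:**
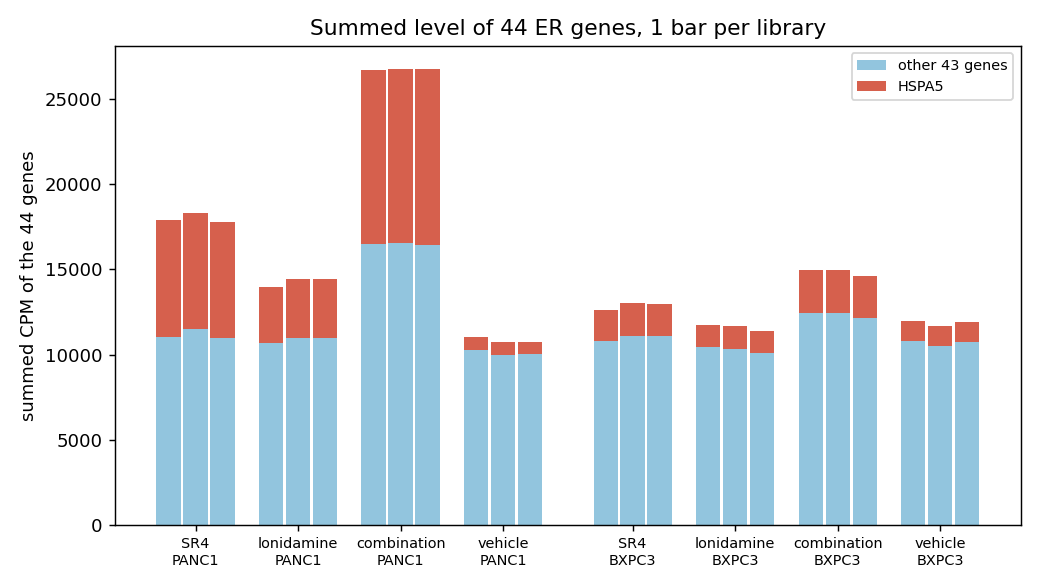
Summed CPM of the 44 genes in each library of PANC1 and BXPC3, split into HSPA5 and the other 43 genes, by treatment. The PANC1 combination libraries lie between 26704 and 26787 CPM, and the PANC1 vehicle libraries between 10744 and 11032 CPM.

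Among the chaperones, HSPA5 had in PANC1 6888, 6825 and 6802 CPM with SR4, 3289, 3465 and 3457 CPM with lonidamine and 10240, 10200 and 10350 CPM with the combination, against 791, 772 and 737 CPM with vehicle. BXPC3 levels of HSPA5 were 1835, 1934 and 1924 CPM with SR4, 1309, 1309 and 1268 CPM with lonidamine and 2561, 2549 and 2466 CPM with the combination, against 1178, 1156 and 1177 CPM with vehicle. No treated library overlapped the vehicle libraries in either line, and the combination was highest in both. HSPA5 rose in PANC1 by 3.16 ± 0.031 log2 with SR4, 2.15 ± 0.030 with lonidamine and 3.74 ± 0.032 with the combination, and in BXPC3 by 0.70 ± 0.028 log2 with SR4, 0.15 ± 0.028 with lonidamine and 1.11 ± 0.028 with the combination. The combination gave adjusted p = 8.76e-34 in PANC1 and 9.28e-23 in BXPC3 by edgeR's quasi-likelihood test, Benjamini-Hochberg adjusted. The vehicle levels were closer than the treated ones, at 196.6 CPM per kilobase of transcript in PANC1 and 300.1 in BXPC3.

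HSP90B1 (GRP94), the HSP90 of the ER, had in PANC1 1243, 1311 and 1251 CPM with SR4, 880.2, 917 and 899 CPM with lonidamine and 2655, 2675 and 2668 CPM with the combination, against 918, 908 and 907 CPM with vehicle. With lonidamine the libraries overlapped vehicle, and with the combination all were far above it. BXPC3 libraries had 899, 982 and 947 CPM with SR4, 907, 900.2 and 905 CPM with lonidamine and 1072, 1092 and 1057 CPM with the combination, against 1023, 996 and 1025 CPM with vehicle. In PANC1 the log2 changes were 0.48 ± 0.031 log2 with SR4, -0.02 ± 0.031 with lonidamine and 1.55 ± 0.031 with the combination, where the lonidamine value did not pass. HSP90B1 in BXPC3 fell by 0.11 ± 0.031 log2 with SR4 and by 0.17 ± 0.031 with lonidamine, and rose by 0.081 ± 0.031 with the combination. The SR4 fall was lost without SR4 replicate 1 (-0.073), and the combination rise was lost without vehicle replicate 2 (0.067) and without combination replicate 2 (0.069).

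HYOU1, an HSP70-like exchange factor for BiP, had in PANC1 716, 706 and 709.8 CPM with SR4, 1141, 1116 and 1157 CPM with lonidamine and 1081, 1130 and 1116 CPM with the combination, against 529, 508 and 503 CPM with vehicle. BXPC3 levels of HYOU1 were 773, 756 and 786 CPM with SR4, 672, 658 and 638 CPM with lonidamine and 984, 1023 and 959.7 CPM with the combination, against 545, 525 and 534 CPM with vehicle. All treated libraries were above vehicle, and in PANC1 lonidamine alone reached the level of the combination. The rises were 0.47 ± 0.033 log2 with SR4, 1.15 ± 0.033 with lonidamine and 1.11 ± 0.033 with the combination in PANC1, and 0.53 ± 0.032 log2 with SR4, 0.29 ± 0.032 with lonidamine and 0.89 ± 0.032 with the combination in BXPC3. SIL1, the other exchange factor for BiP, rose by 1.32 ± 0.084 log2 with the combination in PANC1 and by 0.34 ± 0.12 in BXPC3, where the call was lost without vehicle replicate 3 (0.28) and without combination replicate 3 (0.24). SIL1 overlaps MATR3, which lies on the opposite strand and averaged 367 ± 8.32 CPM with the combination in PANC1, against 532 ± 9.11 with vehicle.

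DNAJB9 (ERdj4), a J-domain co-chaperone known as a target of XBP1, had in PANC1 46.8, 49.6 and 49.1 CPM with SR4, 25.8, 27.0 and 26.0 CPM with lonidamine and 99.7, 103 and 102 CPM with the combination, against 18.3, 17.0 and 19.3 CPM with vehicle. The BXPC3 libraries had 58.1, 61.3 and 61.2 CPM with SR4, 65.7, 65.6 and 66.4 CPM with lonidamine and 115, 103 and 104 CPM with the combination, against 34.3, 31.5 and 33.4 CPM with vehicle. Every treated library was above every vehicle library of its line. The rises were 1.41 ± 0.070 log2 with SR4, 0.53 ± 0.076 with lonidamine and 2.48 ± 0.063 with the combination in PANC1, and 0.86 ± 0.060 log2 with SR4, 0.99 ± 0.060 with lonidamine and 1.70 ± 0.057 with the combination in BXPC3. PNPLA8 overlaps 99 bases of DNAJB9 on the opposite strand and had a log2 change of 2.16 in PANC1 and 1.98 in BXPC3 with the combination, and its part in the DNAJB9 counts was not tested.

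DNAJC3 (p58IPK), a co-chaperone that also restrains PERK, had in PANC1 84.6, 95.5 and 88.3 CPM with SR4, 107, 120.4 and 117 CPM with lonidamine and 282, 268 and 278 CPM with the combination, against 94.5, 90.0 and 88.6 CPM with vehicle. The PANC1 SR4 libraries overlapped vehicle, and the combination libraries stood far above all others. BXPC3 levels of DNAJC3 were 220.1, 234 and 229 CPM with SR4, 226, 223 and 219.5 CPM with lonidamine and 368, 372 and 341 CPM with the combination, against 184, 184 and 196 CPM with vehicle. The PANC1 log2 changes were -0.026 ± 0.053 log2 with SR4, 0.34 ± 0.051 with lonidamine and 1.60 ± 0.048 with the combination, where SR4 did not pass, and DNAJC3 rose in BXPC3 by 0.28 ± 0.041 log2 with SR4, 0.25 ± 0.041 with lonidamine and 0.94 ± 0.041 with the combination. Of the remaining J-domain genes, DNAJB11 (ERdj3) rose by 1.16 ± 0.037 log2 with the combination in PANC1, against 0.082 ± 0.046 in BXPC3, which did not pass (0.11 and passing without vehicle replicate 3 and without combination replicate 3). TBCCD1 overlaps 3141 bases of DNAJB11 on the opposite strand, with log2 changes of 0.83 in PANC1 and -0.11 in BXPC3 with the combination, and its part in the DNAJB11 counts was not tested. DNAJC10 (ERdj5), a reductase, rose by 0.39 ± 0.036 in PANC1 and 0.78 ± 0.045 in BXPC3.

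SDF2L1, MANF and CRELD2, small ER proteins known as UPR targets, did not follow HSPA5 with single compounds. With the combination SDF2L1 and MANF rose in PANC1, CRELD2 did not, and none of them rose in BXPC3. SDF2L1, a partner of DNAJB11, had in PANC1 7.65, 12.7 and 8.58 CPM with SR4, 7.12, 9.79 and 8.72 CPM with lonidamine and 19.1, 19.5 and 19.4 CPM with the combination, against 12.3, 13.8 and 14.7 CPM with vehicle. The BXPC3 libraries had 6.54, 5.80 and 6.98 CPM with SR4, 6.89, 5.73 and 5.35 CPM with lonidamine and 5.05, 7.13 and 7.07 CPM with the combination, against 9.82, 8.86 and 8.26 CPM with vehicle. In PANC1, 1 SR4 library overlapped vehicle and the combination libraries were above it, and all treated BXPC3 libraries were below vehicle. The log2 changes were -0.50 ± 0.15 log2 with SR4, -0.66 ± 0.15 with lonidamine and 0.51 ± 0.13 with the combination in PANC1, and -0.48 ± 0.15 log2 with SR4, -0.58 ± 0.15 with lonidamine and -0.48 ± 0.15 with the combination in BXPC3. In BXPC3 the fall with the combination was lost without combination replicate 1, at -0.34.

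MANF, a secreted factor that binds BiP, had in PANC1 39.2, 39.3 and 48.0 CPM with SR4, 32.9, 37.1 and 38.0 CPM with lonidamine and 103, 104 and 102 CPM with the combination, against 42.6, 44.5 and 39.9 CPM with vehicle. BXPC3 levels of MANF were 51.4, 52.0 and 51.2 CPM with SR4, 40.3, 40.9 and 40.5 CPM with lonidamine and 66.1, 68.2 and 58.0 CPM with the combination, against 62.5, 64.3 and 62.8 CPM with vehicle. The PANC1 combination libraries were above all others, while lonidamine libraries were below vehicle in both lines. The PANC1 log2 changes were -0.005 ± 0.075 log2 with SR4, -0.23 ± 0.075 with lonidamine and 1.28 ± 0.066 with the combination, where SR4 did not pass and the lonidamine fall was lost without lonidamine replicate 1, at -0.17. MANF log2 changes in BXPC3 were -0.29 ± 0.057 log2 with SR4, -0.64 ± 0.060 with lonidamine and 0.021 ± 0.057 with the combination, where the combination did not pass.

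CRELD2, an ER protein with disulfide isomerase activity, had in PANC1 21.9, 20.8 and 18.7 CPM with SR4, 24.4, 25.3 and 23.1 CPM with lonidamine and 28.6, 32.6 and 31.4 CPM with the combination, against 34.4, 35.0 and 32.9 CPM with vehicle. BXPC3 levels of CRELD2 were 17.4, 16.3 and 16.9 CPM with SR4, 9.09, 12.2 and 10.4 CPM with lonidamine and 8.46, 9.36 and 12.6 CPM with the combination, against 25.1, 26.8 and 21.8 CPM with vehicle. All treated libraries were below vehicle in both lines. CRELD2 fell in BXPC3 by 0.54 ± 0.11 log2 with SR4, 1.21 ± 0.12 with lonidamine and 1.28 ± 0.12 with the combination. In PANC1 the log2 changes were -0.74 ± 0.083 log2 with SR4, -0.49 ± 0.078 with lonidamine and -0.15 ± 0.076 with the combination, where the combination did not pass.

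**Figure D3:**
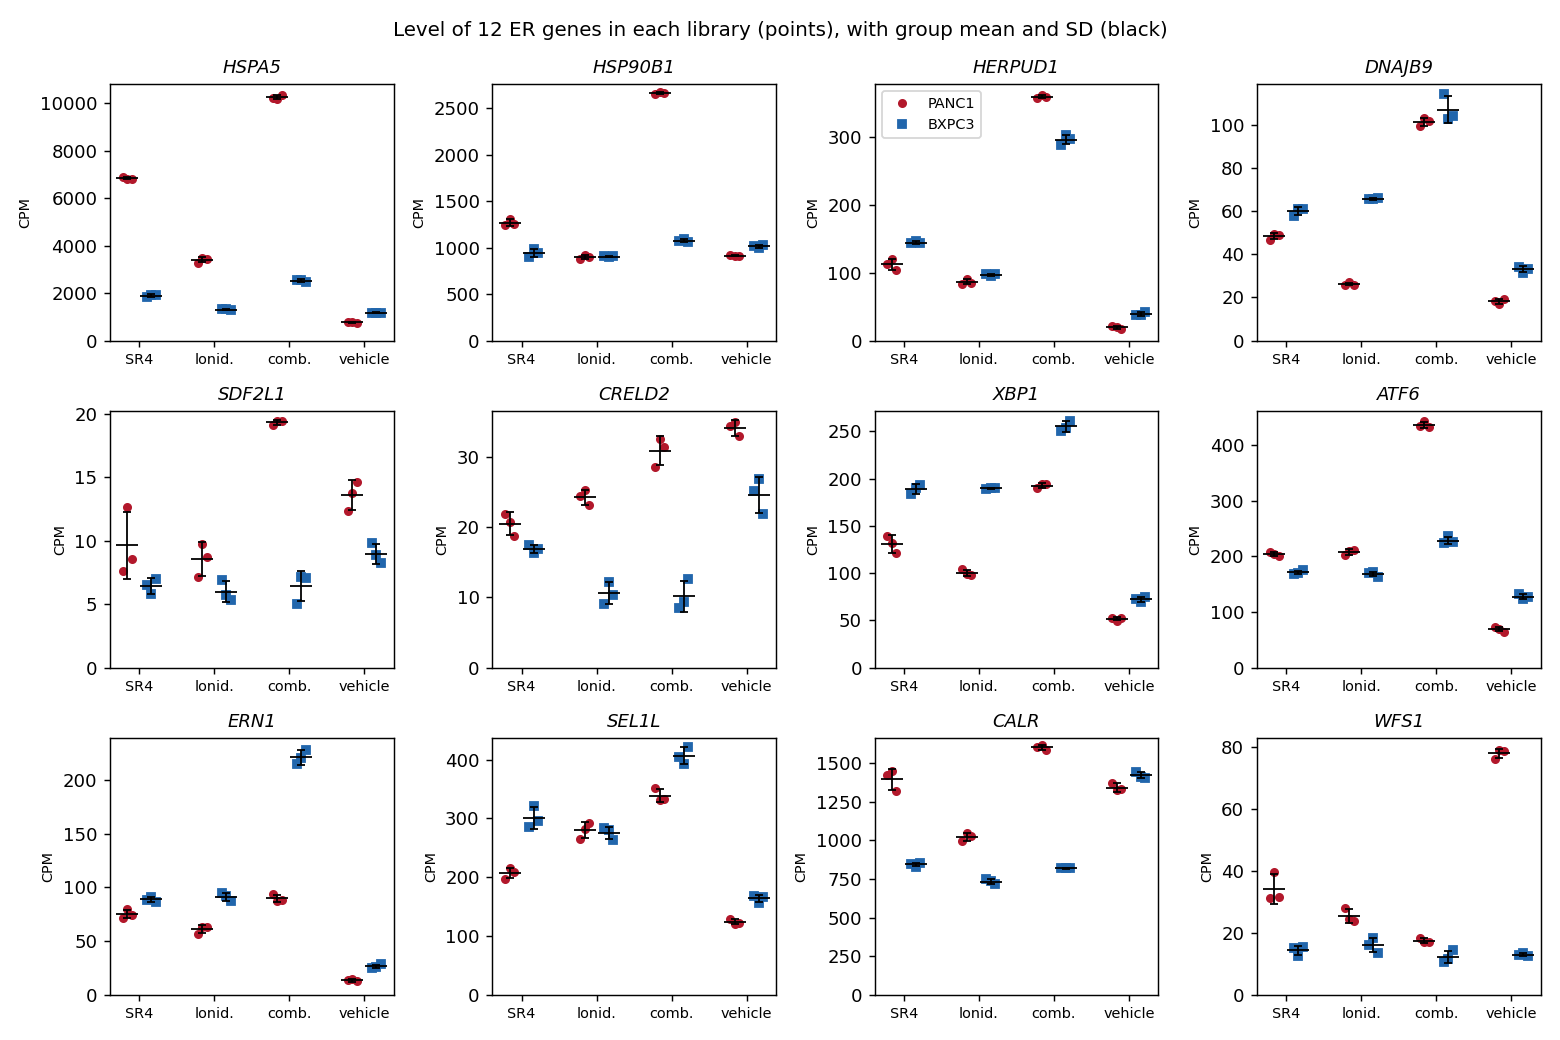
CPM in each library (points; red for PANC1, blue for BXPC3) of 12 of the genes by treatment, with the group mean and SD in black on a linear axis. HSPA5 and HERPUD1 are higher in every treated library than in the vehicle libraries of the line, and WFS1 is lower in every treated PANC1 library.

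In the lectin cycle, CALR (calreticulin), which binds glycans of folding chains, had in PANC1 1420, 1447 and 1318 CPM with SR4, 992, 1044 and 1026 CPM with lonidamine and 1605, 1614 and 1585 CPM with the combination, against 1371, 1322 and 1329 CPM with vehicle. BXPC3 levels of CALR were 849, 829 and 851 CPM with SR4, 747, 733 and 715 CPM with lonidamine and 822, 817 and 818 CPM with the combination, against 1443, 1411 and 1405 CPM with vehicle. Every treated BXPC3 library lay below every vehicle library. CALR fell in BXPC3 by 0.75 ± 0.028 log2 with SR4, 0.96 ± 0.028 with lonidamine and 0.79 ± 0.028 with the combination, with adjusted p = 2.21e-19 for the combination by edgeR's quasi-likelihood test, Benjamini-Hochberg adjusted. In PANC1 the log2 changes were 0.057 ± 0.034 log2 with SR4, -0.39 ± 0.034 with lonidamine and 0.26 ± 0.034 with the combination, where SR4 did not pass. CANX (calnexin), its membrane-bound homologue, rose by 0.51 ± 0.030 log2 in PANC1 and 0.32 ± 0.030 in BXPC3 with the combination. UGGT1, which marks unfolded glycoproteins for another round, fell by 0.20 ± 0.068 with the combination in BXPC3, a call lost without vehicle replicate 3 (-0.15). Its fall in PANC1, -0.10 ± 0.046, was lost in 8 alternative analyses, among them those without vehicle replicate 1 or 2 and without combination replicate 2 or 3, at -0.11 to -0.061.

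Disulfide isomerases did not move together. PDIA4 (ERp72) had in PANC1 557, 586 and 536 CPM with SR4, 454, 457 and 456 CPM with lonidamine and 650.2, 669.6 and 631 CPM with the combination, against 638, 643 and 631 CPM with vehicle. BXPC3 levels of PDIA4 were 505, 503 and 512 CPM with SR4, 472, 468 and 454 CPM with lonidamine and 516, 494 and 501 CPM with the combination, against 705, 703 and 698 CPM with vehicle. All treated BXPC3 libraries were below vehicle, whereas the PANC1 combination libraries overlapped it. PDIA4 fell in BXPC3 by 0.47 ± 0.031 log2 with SR4, 0.59 ± 0.031 with lonidamine and 0.48 ± 0.031 with the combination. The PANC1 log2 changes were -0.19 ± 0.036 log2 with SR4, -0.48 ± 0.036 with lonidamine and 0.029 ± 0.035 with the combination, where the combination did not pass.

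PDIA3 (ERp57), the isomerase that works with CALR and CANX, had in PANC1 632, 652 and 616 CPM with SR4, 583, 607 and 591 CPM with lonidamine and 630.4, 641 and 644 CPM with the combination, against 716, 682 and 678 CPM with vehicle. BXPC3 levels of PDIA3 were 902, 945 and 944 CPM with SR4, 893, 886 and 847 CPM with lonidamine and 794, 803 and 735 CPM with the combination, against 1078, 1042 and 1072 CPM with vehicle. All treated libraries were below vehicle in both lines. The falls were 0.13 ± 0.034 log2 with SR4, 0.22 ± 0.034 with lonidamine and 0.12 ± 0.034 with the combination in PANC1, and 0.19 ± 0.034 log2 with SR4, 0.28 ± 0.034 with lonidamine and 0.45 ± 0.034 with the combination in BXPC3. The PANC1 combination call was lost with no low-count filter, at -0.080. PDIA6 fell by 0.46 ± 0.042 with the combination in BXPC3, and its PANC1 value, 0.018 ± 0.040, did not pass.

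PPIB (cyclophilin B), a proline isomerase, had in PANC1 233, 244 and 222 CPM with SR4, 190.4, 195 and 192 CPM with lonidamine and 246, 252 and 233 CPM with the combination, against 271, 251 and 252 CPM with vehicle. BXPC3 levels of PPIB were 430.1, 433 and 422 CPM with SR4, 406, 400.2 and 375 CPM with lonidamine and 314, 309.5 and 299 CPM with the combination, against 469.7, 461 and 453 CPM with vehicle. BXPC3 combination libraries were the lowest of that line. The log2 changes were -0.15 ± 0.042 log2 with SR4, -0.42 ± 0.042 with lonidamine and -0.083 ± 0.042 with the combination in PANC1, where the combination did not pass, and PPIB fell in BXPC3 by 0.11 ± 0.035 log2 with SR4, 0.23 ± 0.035 with lonidamine and 0.59 ± 0.036 with the combination.

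FKBP14, a proline isomerase that acts on collagens, had in PANC1 36.8, 31.8 and 37.4 CPM with SR4, 56.5, 55.4 and 53.8 CPM with lonidamine and 68.8, 58.4 and 67.5 CPM with the combination, against 65.3, 58.0 and 59.1 CPM with vehicle. BXPC3 levels of FKBP14 were 51.8, 48.7 and 49.0 CPM with SR4, 56.5, 54.8 and 51.9 CPM with lonidamine and 53.3, 49.1 and 49.8 CPM with the combination, against 30.8, 33.2 and 32.5 CPM with vehicle. SR4 libraries were the lowest in PANC1, and all treated BXPC3 libraries were above vehicle. FKBP14 fell in PANC1 by 0.78 ± 0.074 log2 with SR4, while its lonidamine and combination values, -0.14 ± 0.067 and 0.095 ± 0.066, did not pass. In BXPC3 it rose by 0.63 ± 0.063 log2 with SR4, 0.76 ± 0.062 with lonidamine and 0.66 ± 0.064 with the combination.

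Of the remaining isomerases, 3 rose with the combination in both lines. P4HB, the founding disulfide isomerase, rose by 0.64 ± 0.034 log2 in PANC1 and 0.16 ± 0.030 in BXPC3. ERP44, which retains proteins by thiol bonds, rose by 1.22 ± 0.055 in PANC1 and 0.34 ± 0.042 in BXPC3. TXNDC11, a thioredoxin-domain protein, rose by 0.45 ± 0.068 in PANC1 and 0.47 ± 0.063 in BXPC3, and SNN, which overlaps 80 bases of it on the opposite strand, had changes of -1.78 and -0.31 in these lines. TXNDC5 lay between 0.561 and 2.52 CPM in all libraries, and none of its 6 changes passed. TXNDC5 shares exons with a readthrough gene, so its counts may be incomplete.

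Most ERAD genes rose with the combination, 9 of 10 in each line, with medians of 0.74 log2 in PANC1 and 0.62 in BXPC3. The background of all genes that rose was 40.1% in PANC1 and 39.7% in BXPC3. HERPUD1, a membrane protein that assembles the HRD1 ligase complex, had in PANC1 113, 119.7 and 104 CPM with SR4, 83.7, 91.1 and 84.7 CPM with lonidamine and 357, 361 and 358 CPM with the combination, against 21.6, 19.6 and 17.4 CPM with vehicle. BXPC3 levels of HERPUD1 were 143, 147 and 143 CPM with SR4, 98.1, 95.1 and 97.7 CPM with lonidamine and 288, 302 and 296 CPM with the combination, against 37.9, 37.2 and 41.8 CPM with vehicle. All treated libraries stood above vehicle by a wide margin, and the combination libraries above those of either compound. The rises were 2.52 ± 0.069 log2 with SR4, 2.15 ± 0.070 with lonidamine and 4.20 ± 0.062 with the combination in PANC1, and 1.89 ± 0.049 log2 with SR4, 1.31 ± 0.051 with lonidamine and 2.92 ± 0.047 with the combination in BXPC3. The combination gave adjusted p = 1.96e-28 in PANC1 and 9.68e-27 in BXPC3 by edgeR's quasi-likelihood test, Benjamini-Hochberg adjusted. HERPUD1 is also the gene whose promoter, shown above, held both an ERSE-II and a C/EBP-ATF element. The part of these elements in its rise was not tested.

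SYVN1 (HRD1), the ubiquitin ligase of the complex, had in PANC1 109, 106 and 103 CPM with SR4, 108, 104 and 105 CPM with lonidamine and 205, 197 and 189 CPM with the combination, against 65.0, 60.3 and 62.2 CPM with vehicle. BXPC3 levels of SYVN1 were 101, 92.7 and 95.8 CPM with SR4, 99.8, 94.0 and 104 CPM with lonidamine and 151, 157 and 170.4 CPM with the combination, against 66.5, 63.2 and 55.6 CPM with vehicle. Treated libraries were all above vehicle. The rises were 0.76 ± 0.050 log2 with SR4, 0.76 ± 0.049 with lonidamine and 1.66 ± 0.047 with the combination in PANC1, and 0.65 ± 0.062 log2 with SR4, 0.68 ± 0.062 with lonidamine and 1.37 ± 0.060 with the combination in BXPC3. Its neighbours MRPL49 and FAU overlap it, and the log2 change of MRPL49 with the combination was 0.62 in PANC1 and 0.37 in BXPC3.

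SEL1L, the adaptor that holds SYVN1, had in PANC1 198, 215 and 209.7 CPM with SR4, 265, 283 and 293 CPM with lonidamine and 352, 332 and 332 CPM with the combination, against 129, 121 and 122 CPM with vehicle. BXPC3 levels of SEL1L were 285, 322 and 295 CPM with SR4, 283, 279.8 and 264 CPM with lonidamine and 405, 393 and 422 CPM with the combination, against 169, 157 and 167 CPM with vehicle. No treated library overlapped vehicle. SEL1L rose in PANC1 by 0.74 ± 0.046 log2 with SR4, 1.17 ± 0.045 with lonidamine and 1.45 ± 0.045 with the combination, and in BXPC3 by 0.87 ± 0.045 log2 with SR4, 0.75 ± 0.046 with lonidamine and 1.31 ± 0.045 with the combination.

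EDEM1, EDEM2 and EDEM3 trim mannose from glycoproteins that are to be degraded. EDEM1 had in PANC1 54.0, 57.3 and 64.8 CPM with SR4, 80.3, 85.4 and 86.2 CPM with lonidamine and 82.1, 73.4 and 82.0 CPM with the combination, against 70.0, 68.8 and 64.3 CPM with vehicle. BXPC3 levels of EDEM1 were 217, 209 and 213 CPM with SR4, 205, 205 and 205 CPM with lonidamine and 244, 251 and 263 CPM with the combination, against 158, 152 and 161 CPM with vehicle. All treated BXPC3 libraries were above vehicle, while in PANC1 the SR4 libraries sat at the low end and 1 of them overlapped vehicle. EDEM1 rose in BXPC3 by 0.45 ± 0.039 log2 with SR4, 0.39 ± 0.040 with lonidamine and 0.69 ± 0.039 with the combination. In PANC1 it fell by 0.21 ± 0.065 with SR4, a call lost without SR4 replicate 1 (-0.15), and rose by 0.31 ± 0.061 with lonidamine and 0.23 ± 0.061 with the combination.

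EDEM2 had in PANC1 32.7, 35.8 and 35.5 CPM with SR4, 50.9, 46.1 and 53.7 CPM with lonidamine and 33.8, 33.9 and 34.7 CPM with the combination, against 39.6, 41.6 and 41.7 CPM with vehicle. BXPC3 levels of EDEM2 were 41.4, 44.1 and 40.5 CPM with SR4, 44.7, 49.6 and 46.9 CPM with lonidamine and 52.3, 50.7 and 42.1 CPM with the combination, against 38.0, 33.7 and 31.8 CPM with vehicle. The PANC1 SR4 and combination libraries were below vehicle, and all treated BXPC3 libraries were above it. The log2 changes were -0.24 ± 0.070 log2 with SR4, 0.30 ± 0.065 with lonidamine and -0.26 ± 0.069 with the combination in PANC1, and 0.28 ± 0.079 log2 with SR4, 0.45 ± 0.078 with lonidamine and 0.49 ± 0.079 with the combination in BXPC3. EDEM3 rose with the combination by 0.65 ± 0.056 in PANC1 and 0.45 ± 0.059 in BXPC3.

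Derlins form the channel through which chains leave the ER. DERL1 rose by 0.83 ± 0.043 log2 in PANC1 and 0.82 ± 0.044 in BXPC3 with the combination, and DERL2 by 0.64 ± 0.076 and 0.20 ± 0.084. The BXPC3 call for DERL2 was lost with DESeq2 and without vehicle replicate 1 or 2 or combination replicate 1 or 2, at 0.16 to 0.20. MIS12 overlaps 527 bases of DERL2 on the opposite strand, with log2 changes of 0.48 in PANC1 and -0.037 in BXPC3. DERL3, the least abundant, had in PANC1 0.733, 0.639 and 0.620 CPM with SR4, 0.462, 0.699 and 0.658 CPM with lonidamine and 2.72, 2.84 and 2.71 CPM with the combination, against 1.17, 1.23 and 0.778 CPM with vehicle. BXPC3 levels of DERL3 were 1.29, 1.53 and 0.997 CPM with SR4, 0.300, 0.486 and 0.412 CPM with lonidamine and 3.08, 3.12 and 1.24 CPM with the combination, against 1.39, 1.96 and 1.78 CPM with vehicle. The lonidamine libraries of BXPC3 were below all vehicle libraries, and the combination libraries of PANC1 above all. PANC1 libraries with either compound alone were below vehicle. DERL3 rose by 1.37 ± 0.28 with the combination in PANC1 and fell by 2.06 ± 0.45 with lonidamine in BXPC3, and its other 4 changes did not pass. Without combination replicate 3 its BXPC3 combination value was 0.86 and passed, and without vehicle replicate 3 its PANC1 lonidamine value was -0.96 and passed. OS9, a lectin that hands glycoproteins to the ligase, rose by 0.44 ± 0.042 in PANC1 and 0.35 ± 0.037 in BXPC3 with the combination.

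Of the sensors and factors, ERN1 (IRE1), the kinase and nuclease, had in PANC1 71.8, 79.7 and 74.2 CPM with SR4, 56.7, 63.4 and 63.6 CPM with lonidamine and 93.8, 87.1 and 88.6 CPM with the combination, against 13.5, 14.6 and 12.4 CPM with vehicle. BXPC3 levels of ERN1 were 88.6, 91.5 and 86.5 CPM with SR4, 94.7, 91.7 and 87.2 CPM with lonidamine and 214, 221 and 228 CPM with the combination, against 25.2, 26.0 and 28.4 CPM with vehicle. All treated libraries were above vehicle, and in BXPC3 the combination stood far above either compound. ERN1 rose in PANC1 by 2.48 ± 0.078 log2 with SR4, 2.18 ± 0.079 with lonidamine and 2.73 ± 0.075 with the combination, and in BXPC3 by 1.74 ± 0.058 log2 with SR4, 1.78 ± 0.058 with lonidamine and 3.06 ± 0.054 with the combination. The BXPC3 combination gave adjusted p = 6.48e-26 by edgeR's quasi-likelihood test, Benjamini-Hochberg adjusted.

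XBP1, whose mRNA IRE1 splices, had in PANC1 139.6, 132 and 121 CPM with SR4, 104, 99.0 and 98.6 CPM with lonidamine and 189.9, 194 and 194 CPM with the combination, against 52.7, 49.9 and 52.6 CPM with vehicle. BXPC3 levels of XBP1 were 184, 190.4 and 194 CPM with SR4, 189, 190.3 and 190.3 CPM with lonidamine and 251, 254 and 261 CPM with the combination, against 72.6, 69.6 and 75.2 CPM with vehicle. Treated libraries were all above vehicle. The rises were 1.34 ± 0.054 log2 with SR4, 0.96 ± 0.054 with lonidamine and 1.90 ± 0.051 with the combination in PANC1, and 1.39 ± 0.043 log2 with SR4, 1.39 ± 0.043 with lonidamine and 1.82 ± 0.042 with the combination in BXPC3. Gene counts do not separate spliced from unspliced XBP1, so splicing was not measured.

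ATF6, the membrane-bound factor, had in PANC1 208, 204 and 201 CPM with SR4, 202, 209.6 and 211 CPM with lonidamine and 434, 442 and 433 CPM with the combination, against 72.7, 69.2 and 65.0 CPM with vehicle. BXPC3 levels of ATF6 were 169, 170 and 175 CPM with SR4, 169, 172 and 163 CPM with lonidamine and 223, 236 and 225 CPM with the combination, against 132, 124 and 126 CPM with vehicle. All treated libraries were above vehicle, with a wider gap in PANC1. ATF6 rose in PANC1 by 1.56 ± 0.044 log2 with SR4, 1.59 ± 0.044 with lonidamine and 2.66 ± 0.043 with the combination, and in BXPC3 by 0.42 ± 0.041 log2 with SR4, 0.40 ± 0.041 with lonidamine and 0.84 ± 0.041 with the combination. The mRNA does not report the cleavage that activates the protein. ATF6B, its homologue, rose by 0.23 ± 0.042 in PANC1 and fell by 0.20 ± 0.055 in BXPC3 with the combination.

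CREB3L2, a related membrane-bound factor known for secretory genes in cartilage, had in PANC1 34.9, 35.9 and 31.2 CPM with SR4, 35.7, 35.5 and 36.7 CPM with lonidamine and 41.4, 39.7 and 36.6 CPM with the combination, against 43.8, 41.4 and 41.7 CPM with vehicle. BXPC3 levels of CREB3L2 were 68.1, 73.0 and 71.4 CPM with SR4, 94.3, 88.2 and 85.0 CPM with lonidamine and 59.3, 63.6 and 65.1 CPM with the combination, against 53.5, 52.2 and 57.7 CPM with vehicle. Lonidamine libraries were the highest in BXPC3, and in PANC1 all treated libraries were below vehicle except 1 combination library, which overlapped it. CREB3L2 rose in BXPC3 by 0.38 ± 0.057 log2 with SR4, 0.71 ± 0.056 with lonidamine and 0.20 ± 0.060 with the combination. In PANC1 the log2 changes were -0.32 ± 0.070 log2 with SR4, -0.23 ± 0.068 with lonidamine and -0.11 ± 0.068 with the combination, where the combination did not pass.

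Translocation genes rose with the combination in PANC1, 5 of 5, and in BXPC3 3 of 5 did (background 40.1% and 39.7%). With only 5 genes, the BXPC3 count is not set apart from the share of all genes. SRPRB, a subunit of the signal recognition particle receptor, rose by 1.49 ± 0.049 log2 in PANC1 and 0.48 ± 0.051 in BXPC3. RAB6B, which overlaps 1534 bases of SRPRB on the opposite strand, had changes of -0.42 and 0.66. In BXPC3 RAB6B averaged only 1.36 ± 1.01 CPM with the combination, against 0.86 ± 0.244 with vehicle. SEC61A1, the channel subunit of the translocon, rose by 0.86 ± 0.036 in PANC1 and 0.56 ± 0.032 in BXPC3, and RUVBL1, which overlaps it on the opposite strand, had log2 changes of -0.78 in PANC1 and -1.12 in BXPC3. SEC11C, a catalytic subunit of signal peptidase, rose by 0.41 ± 0.080 and 0.34 ± 0.085. SEC61B and SSR1, further translocon subunits, rose by 0.46 ± 0.078 and 0.29 ± 0.045 in PANC1, and their BXPC3 values, -0.034 ± 0.061 and 0.037 ± 0.040, did not pass.

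WFS1 (wolframin), known to be lost in Wolfram syndrome, fell in PANC1 with every treatment. PANC1 libraries had 31.2, 39.8 and 31.6 CPM with SR4, 28.2, 24.4 and 24.0 CPM with lonidamine and 18.4, 17.2 and 17.1 CPM with the combination, against 76.3, 79.1 and 78.7 CPM with vehicle. BXPC3 levels of WFS1 were 15.0, 12.7 and 15.3 CPM with SR4, 16.1, 18.4 and 13.7 CPM with lonidamine and 10.6, 11.5 and 14.4 CPM with the combination, against 13.0, 13.4 and 12.5 CPM with vehicle. Every treated PANC1 library was below every vehicle library. WFS1 fell in PANC1 by 1.19 ± 0.075 log2 with SR4, 1.61 ± 0.076 with lonidamine and 2.15 ± 0.082 with the combination, with adjusted p = 2.03e-19 for the combination by edgeR's quasi-likelihood test, Benjamini-Hochberg adjusted. In BXPC3 the log2 changes were 0.15 ± 0.12 log2 with SR4, 0.31 ± 0.12 with lonidamine and -0.096 ± 0.13 with the combination, of which lonidamine passed, a call lost with DESeq2 and without vehicle replicate 1 or 3 or lonidamine replicate 1 or 2, at 0.20 to 0.31.

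The combination was then set against each compound. Against SR4, 38 of the 44 genes were higher with the combination and 1 lower in PANC1 (background 33.2% and 33.4%, 66.5% in all), and 25 higher and 7 lower in BXPC3 (background 30.3% and 30.5%, 60.8% in all). Against lonidamine, 34 were higher and 2 lower in PANC1 (background 37.1% and 37.5%, 74.6% in all), and 27 higher and 7 lower in BXPC3 (background 30.1% and 30.7%, 60.8% in all). HSPA5, for example, was higher with the combination than with SR4 by 0.59 ± 0.028 log2 in PANC1 and 0.41 ± 0.027 in BXPC3. MANF was higher with the combination than with SR4 by 1.28 ± 0.065 in PANC1 and 0.32 ± 0.059 in BXPC3.

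Departure from the sum of the single log2 changes was tested as an interaction. A gene whose single changes were falls can lie above the sum without rising. In PANC1, 28 genes were above the sum and 10 below it (background 30.8% and 30.0%, 60.9% in all). Above it were DERL3 by 2.82 ± 0.50 log2, SDF2L1 by 1.67 ± 0.20, MANF by 1.51 ± 0.10, DNAJC3 by 1.29 ± 0.070, HSP90B1 by 1.09 ± 0.043, CRELD2 by 1.08 ± 0.11 and FKBP14 by 1.02 ± 0.098. Of these, CRELD2 and FKBP14 had changes with the combination itself that did not pass, at -0.15 and 0.095. DNAJB9, which had risen with each compound, was above the sum by 0.54 ± 0.093, and ERP44 by 0.41 ± 0.079. Below it were ERN1 at -1.93 ± 0.099, HSPA5 at -1.56 ± 0.041, HYOU1 at -0.51, ATF6 at -0.49 and SIL1 at -0.49. Further genes below it were HERPUD1 at -0.47 ± 0.088, SEL1L at -0.47 and XBP1 at -0.40 ± 0.071. EDEM2 at -0.32 ± 0.096 and OS9 at -0.26 ± 0.059 were also below the sum. For HSPA5 the interaction had adjusted p = 3.93e-22 and for DNAJC3 4.43e-15 by edgeR's quasi-likelihood test, Benjamini-Hochberg adjusted. In BXPC3, 15 genes were above the sum and 16 below (background 23.7% and 25.5%, 49.2% in all). MANF (0.96 ± 0.084), CALR (0.91 ± 0.040) and DERL3 (3.03 ± 0.56) were above it there, and XBP1 (-0.96 ± 0.058), CREB3L2 (-0.89 ± 0.081) and FKBP14 (-0.73 ± 0.087) below. With the combination itself CALR fell in BXPC3, at -0.79 log2, and the MANF and DERL3 changes did not pass. The DERL3 value rests on 12 counts in all over the BXPC3 lonidamine libraries. HSPA5 was 0.27 ± 0.039 above the sum in BXPC3, the opposite side from PANC1.

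**Figure D4:**
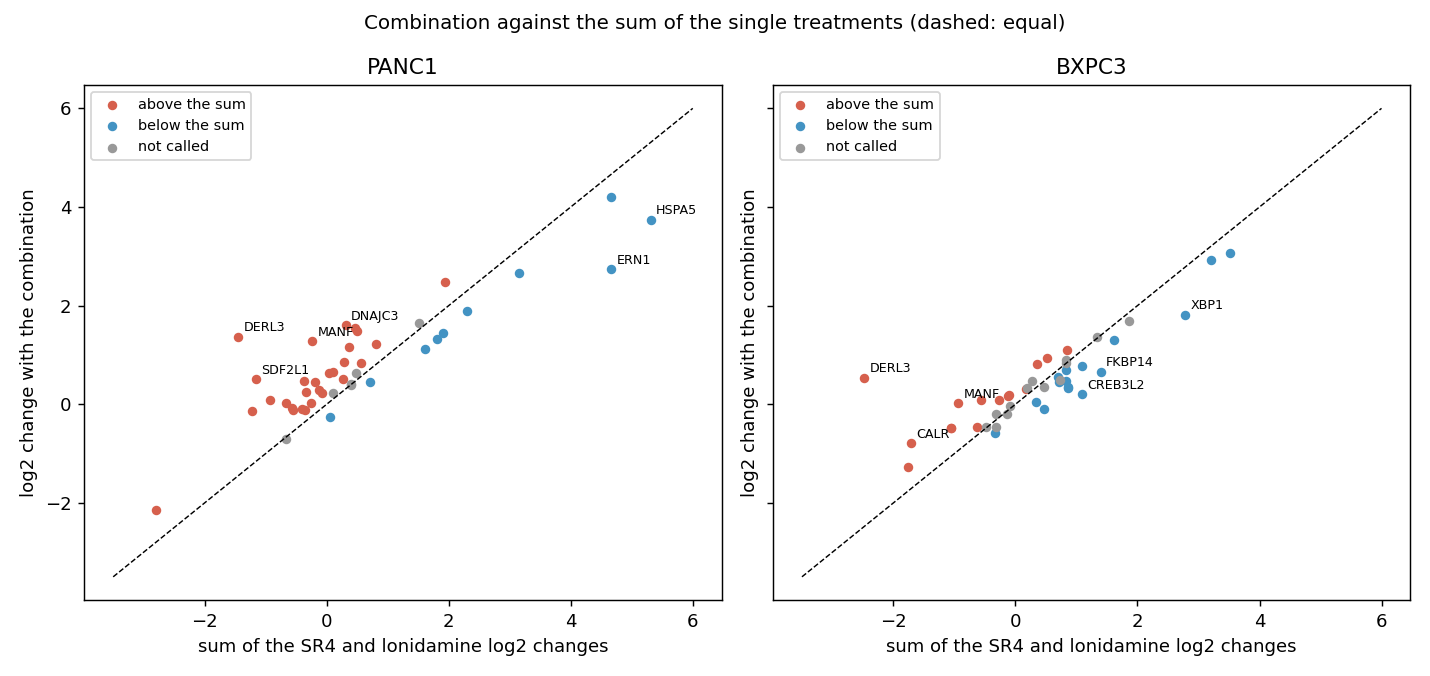
Log2 change with the combination (vertical) against the sum of the SR4 and lonidamine changes (horizontal) for the 44 genes in PANC1 and BXPC3; the dashed line marks equality and colours mark the interaction test. PANC1 HSPA5 and ERN1 lie below the line, and SDF2L1, MANF and DNAJC3 above it.

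Responses of the 44 genes were compared between the lines. Across the 44 genes, Pearson's r between PANC1 and BXPC3 changes was 0.70 with SR4, 0.64 with lonidamine and 0.74 with the combination, which describes genes of the same libraries and not replicates. The sign was the same for 29, 34 and 36 genes, in that order. Neither r nor these counts were set against all genes, so they do not set the 44 apart. The responses of 25 genes differed between lines with SR4, or 56.8% (background 51.2%), a share near that of all genes. With lonidamine 28 differed, or 63.6% (background 41.8%), and with the combination 34, or 77.3% (background 61.9%). Median differences, PANC1 minus BXPC3, were -0.036 log2 with SR4, 0.13 with lonidamine and 0.34 with the combination. Over all genes they were 0.008, 0.05 and 0.015. With the combination 27 responses were higher in PANC1 and 7 lower (background 31.7% and 30.2%), and 10 of the 11 chaperones were among the 27. HSPA5 exceeded its BXPC3 response in PANC1 by 2.46 ± 0.043 log2 with SR4, 2.04 ± 0.043 with lonidamine and 2.59 ± 0.043 with the combination. The ATF6 response was larger in PANC1 by 1.14 ± 0.061, 1.22 ± 0.061 and 1.78 ± 0.060 in the same order. The XBP1 response to lonidamine was lower in PANC1, with a difference of -0.40 ± 0.068. Its differences with SR4, -0.05 ± 0.068, and with the combination, 0.041 ± 0.066, did not pass. ERN1 was larger in PANC1 by 0.73 ± 0.11 with SR4 and 0.43 ± 0.11 with lonidamine, and its combination response was lower in PANC1, at -0.36 ± 0.11, a call lost without BXPC3 vehicle replicate 1, at -0.25.

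Some genes passed in opposite directions in the lines, with the difference itself passing. They are named singly, because the share of all genes that did so was not worked out. With SR4, HSP90B1 and DNAJB11 rose in PANC1 and fell in BXPC3. TXNDC11, FKBP14, EDEM1, EDEM2 and CREB3L2 fell in PANC1 and rose in BXPC3 with SR4. With lonidamine, DNAJB11 rose in PANC1 and fell in BXPC3, and CREB3L2 and WFS1 did the reverse. With the combination, SDF2L1, CALR and ATF6B rose in PANC1 and fell in BXPC3, and EDEM2 fell in PANC1 and rose in BXPC3. The CALR responses to the combination differed by 1.01 ± 0.047 log2 and those of EDEM2 by -0.79 ± 0.11, PANC1 minus BXPC3.

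**Figure D5:**
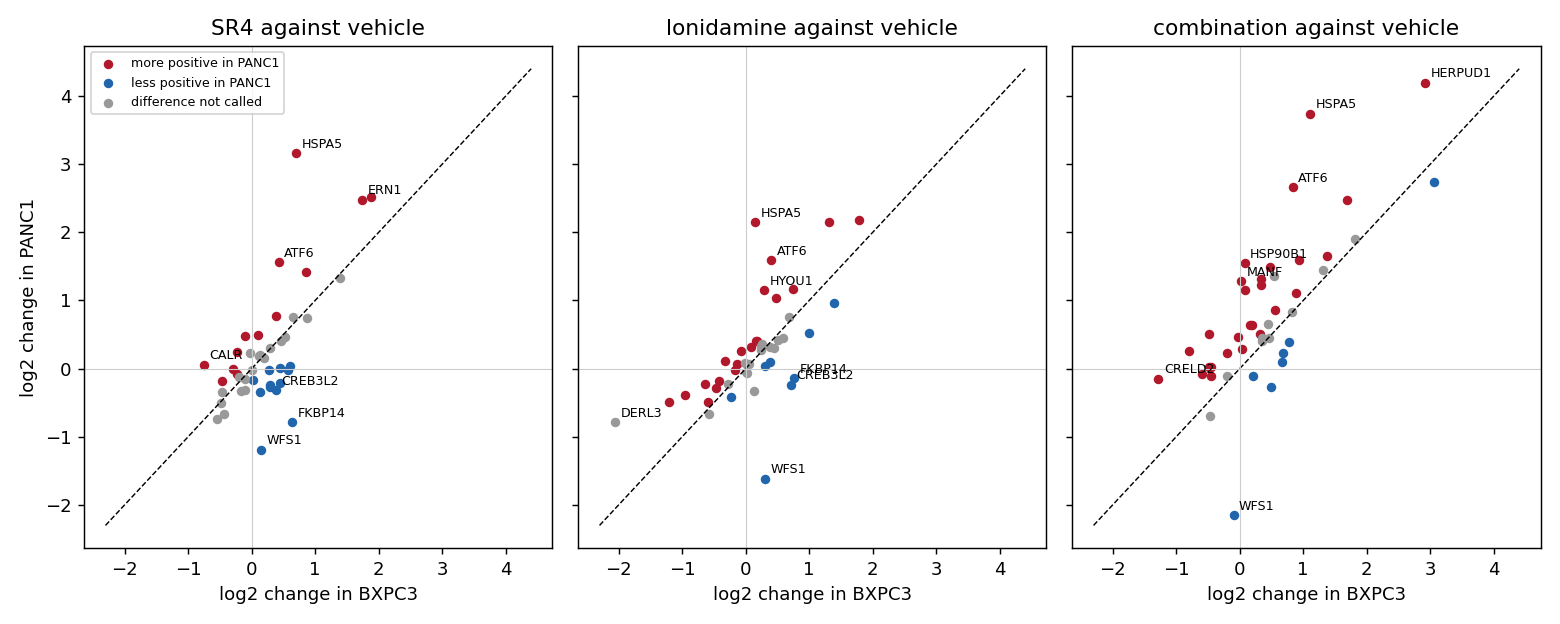
Log2 change from vehicle in PANC1 (vertical) against BXPC3 (horizontal) for the 44 genes, 1 panel per treatment, with the dashed line of equality and colours for the test of the difference. HSPA5 and ATF6 lie above the line in all panels and WFS1 below it.

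Set beside the promoters shown above, the 10 genes with an ERSE or ERSE-II did not move as a block. With the combination in PANC1, 8 of them rose and 2 did not pass, with a median of 0.81 log2, where 40.1% of all genes tested rose and 40.9% fell. Of the 30 genes with a window but no exact match to either element, 23 rose and 3 fell, with a median of 0.55. In BXPC3, 6 of the 10 rose and 4 fell, with a median of 0.20, where 39.7% of all genes tested rose and 39.5% fell, and of the other 30 genes 20 rose and 4 fell, with a median of 0.34. The 4 that fell in BXPC3 were CALR, CRELD2, PDIA6 and SDF2L1, while HSPA5, XBP1 and HERPUD1 rose. Windows that hold the same element belonged to genes with opposite changes in that line.

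Other ER genes gave context, in 5 lists of related steps. Over all genes tested, 40.1% rose and 40.9% fell with the combination in PANC1, and 39.7% rose and 39.5% fell in BXPC3. All 12 genes of the list named for the PERK arm rose with the combination in both lines. Their medians were 3.57 log2 in PANC1 and 2.85 in BXPC3. PERK activity was not measured, and what raised these mRNAs was not tested. ATF3, a stress-induced factor, rose by 6.28 ± 0.059 log2 in PANC1, and EIF2AK3, which encodes PERK, by 1.89 ± 0.062. Of 18 genes of COPII vesicles, which carry folded protein to the Golgi, and of retrieval, 15 rose and 3 fell in PANC1 and 15 rose and 1 fell in BXPC3 with the combination, with medians of 0.90 and 0.64. ARF4, a Golgi GTPase, rose by 2.31 ± 0.038 log2 in PANC1, and KDELR3, a retrieval receptor, by 2.28 ± 0.084 in BXPC3. Of 19 further ERAD genes for ubiquitination and extraction, 12 rose and 5 fell in PANC1, and 10 rose and 3 fell in BXPC3. FAM8A1, a cofactor of SYVN1, rose there by 2.60 ± 0.063 in PANC1 and 1.38 ± 0.095 in BXPC3. The lists of translocation and glycan transfer (19 genes, 7 higher and 10 lower in PANC1, 8 and 9 in BXPC3) and of thiol oxidation (11 genes, 4 higher and 6 lower in PANC1, 6 and 5 in BXPC3) went both ways. The largest changes with the combination in the list of translocation and glycan transfer were for SRPRA, 1.56 in PANC1 and 1.02 in BXPC3. For thiol oxidation they were -0.74 for TXNDC15 in PANC1 and 1.29 for ERO1B in BXPC3. TRIB3 led the list named for the PERK arm in BXPC3 at 5.09. With SR4 the leaders in PANC1 were ATF3 (5.68), ARF4 (1.11), VCP (-1.11), SPCS3 (-1.46) and ERO1B (-0.73), and in BXPC3 TRIB3 (4.42), KDELR3 (1.76), FAM8A1 (0.74), SPCS3 (-0.68) and ERO1B (0.72). With lonidamine they were CHAC1 (4.16), ARF4 (0.99), VCP (-0.79), SSR2 (-0.54) and TXNDC12 (0.55) in PANC1, and TRIB3 (4.10), SEC24D (1.44), UBE2J1 (0.61), SEC63 (0.58) and QSOX1 (0.80) in BXPC3.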

How the data were processed

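For each line the authors deposited raw counts per gene in 12 libraries. A deposited length of each gene (kilobases) served only for levels per kilobase. The submitters' processing notes name the builds GRCh38 and hg38 and the tools Partek, DESeq2 and STAR 2.7.8a, with counting tool, annotation release and strand not given in the sources used here. Every value column was used. A BXPC3 library with SR4 has unequal numbers in its column and its title and was left unnumbered.

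Counts were scaled by TMM and filtered by filterByExpr (minimum count 10) in edgeR 4.0.16, which left 12514 genes in PANC1, 12920 in BXPC3 and 13930 in the model of both lines. TMM factors were 0.964 to 1.04, and the biological coefficient of variation was 3.79% in PANC1 and 3.95% in BXPC3. Groups of a line were fitted together and tested by edgeR's quasi-likelihood test, Benjamini-Hochberg adjusted over all genes at a threshold of 0.05. Differences between lines came from 1 model of 24 libraries. Each SE is the absolute log2 change divided by the root of F. The 44 genes and the other ER lists were chosen with earlier results of these data known. Genes described in every library were 16 textbook UPR reporters and sensors, the 3 largest rises and falls per treatment and line, and the 2 most positive and negative differences between lines; from the other lists, the largest change was named, and EIF2AK3, outside this rule, was added after its value was seen. Alternatives were DESeq2 size factors, the DESeq2 1.42.0 test, no filter, a replicate block, only the groups compared and leaving out each library. The pipeline was tested on simulated data. Work was done in R 4.3.3.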

Additional observations from a re-analysis of the deposited data

Results flagged for a closer look

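The responses with the most positive and most negative differences between lines are given here. For each of them the test of the difference itself, edgeR's quasi-likelihood test, Benjamini-Hochberg adjusted, passed, and values are PANC1 minus BXPC3. HSPA5 responded more in PANC1, by 2.46 log2 with SR4, 2.04 with lonidamine and 2.59 with the combination. ATF6 also responded more in PANC1, by 1.14 log2 with SR4, 1.22 with lonidamine and 1.78 with the combination. WFS1 changes were more negative in PANC1, with differences of -1.34 with SR4, -1.90 with lonidamine and -2.09 with the combination. FKBP14 differed by -1.42 log2 with SR4, CREB3L2 by -0.91 with lonidamine and EDEM2 by -0.79 with the combination.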

How the results depend on the processing

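The 15 counts of genes that passed kept within 1.5 times their value under every alternative run, 17 per line (16 for the interactions) and 28 between lines. Of 660 changes 512 passed, 46 of these were lost under at least 1 alternative and 0 changed sign. Leaving out each library gave 33 to 34 genes with SR4, 33 to 35 with lonidamine and 36 to 38 with the combination in PANC1, and 33 to 36, 36 to 39 and 35 to 38 in BXPC3. It gave 37 to 40 against SR4, 36 to 37 against lonidamine and 38 to 39 for the interaction in PANC1, 27 to 32, 31 to 35 and 27 to 31 in BXPC3, and 24 to 27, 26 to 28 and 33 to 37 between lines with SR4, lonidamine and the combination. Libraries with the same number did not deviate together (correlations of -0.135 to 0.086 over 18 pairs in PANC1 and -0.075 to 0.078 over 15 in BXPC3). No shared deviation was seen, which cannot exclude that equal numbers mark shared handling. With the replicate block the counts were 34, 35 and 37 in PANC1 and 32, 37 and 37 in BXPC3 for SR4, lonidamine and the combination, 39, 36 and 38 in PANC1 and 30, 33 and 26 in BXPC3 against SR4, against lonidamine and for the interaction, and 23, 28 and 34 between lines. Scaling by DESeq2 size factors moved the median of all genes by less than 0.1 log2. Counts near 1 CPM limit DERL3 and TXNDC5.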
